A study of Mus musculus with 6 samples.

Results

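The endothelial and sinusoid genes were 10 named genes, Pecam1, Cdh5, Kdr, Flt1, Tek, Tie1, Emcn, Plvap, Stab2 and Eng, chosen by name and not by their values, among the 33971 genes of the deposited table. All 10 were in the table and all 10 passed the filter on low counts, so each could be tested. Endothelial cells line blood and lymph vessels. They hold to each other through junction proteins such as VE-cadherin, survive and divide in response to VEGF, and stay quiescent under angiopoietin signals through the Tie receptors. In bone marrow the vessels widen into sinusoids, whose lining carries scavenger receptors and lets blood cells pass, whereas articular cartilage normally has no vessels.

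RNA was sequenced from articular cartilage of wild-type (WT) mice, at 2 months of age (3 libraries) and at 18 months of age (3 libraries), with no other treatment or allele in either group. The study set the ages side by side because cartilage degenerates with age. The methods give no pooling of animals and do not name the mice behind each library, so the p-values measure the spread between these libraries, which may in part be technical. The methods describe male mice, while Xist, the RNA that silences an X chromosome in females, had 88239, 102417 and 101615 counts in the 2-month libraries and 11, 27 and 30 in the 18-month libraries. Age and this sex pattern cannot be told apart in any comparison below.

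The libraries held 48171507 to 59085179 counts. The labelled tissue was checked with marker genes: 14 chondrocyte markers summed to between 9584 and 11825 FPKM (fragments per unit of transcript length, relative to the library's total) in the 2-month libraries and to between 92.8 and 320 FPKM in the 18-month libraries, with none at 0 across an age. Markers of erythroid cells summed to 300 to 7425 FPKM at 2 months and 29994 to 39756 FPKM at 18 months. Age and this difference in marker content cannot be told apart in any comparison below. The second 2-month library stood apart from the other 2-month libraries in blood, bone and vessel genes, so the tests by gene are given with and without it. It was singled out from these values, those of the members among them. Fits without it therefore show how far the results rest on that library, and are no separate test of age.

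The sequences just upstream of the gene starts are shown for the member that was called between the ages, Stab2, for Eng, the member whose pattern over the libraries was farthest from the others, and for the pair of VEGF receptors, Kdr and Flt1, which moved together across the libraries. They are from RefSeq (GRCm38.p6), printed 5′ to 3′ on the gene's strand, in lower case with each GGAAG or CTTCC, the core letters of an ETS motif read on both strands, in capitals. They run up to the base before the gene start, at chr10:87008026-87008192 on the minus strand for Stab2, chr2:32646345-32646594 on the plus strand for Eng, chr5:75978459-75978705 on the minus strand for Kdr and chr5:147726012-147726261 on the minus strand for Flt1.
Stab2: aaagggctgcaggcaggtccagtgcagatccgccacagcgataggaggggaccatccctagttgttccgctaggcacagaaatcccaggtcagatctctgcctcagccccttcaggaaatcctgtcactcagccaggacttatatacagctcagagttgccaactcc
Eng: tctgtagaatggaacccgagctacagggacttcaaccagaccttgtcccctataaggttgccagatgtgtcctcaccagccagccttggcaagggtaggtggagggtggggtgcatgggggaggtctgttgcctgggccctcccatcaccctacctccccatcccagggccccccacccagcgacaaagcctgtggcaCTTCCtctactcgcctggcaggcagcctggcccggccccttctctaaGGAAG
Kdr: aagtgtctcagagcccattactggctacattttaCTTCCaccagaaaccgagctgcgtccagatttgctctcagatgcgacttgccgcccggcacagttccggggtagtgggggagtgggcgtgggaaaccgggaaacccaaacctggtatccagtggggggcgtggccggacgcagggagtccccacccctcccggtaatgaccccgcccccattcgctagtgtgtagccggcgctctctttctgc
Flt1: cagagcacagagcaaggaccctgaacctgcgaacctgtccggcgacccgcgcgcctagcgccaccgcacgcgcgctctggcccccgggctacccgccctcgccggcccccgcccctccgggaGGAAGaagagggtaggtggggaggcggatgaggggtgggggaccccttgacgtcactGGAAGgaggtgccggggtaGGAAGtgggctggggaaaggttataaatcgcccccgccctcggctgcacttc
RefSeq windows of 300 bases were matched for 7 of the 10 genes, and Pecam1, Cdh5 and Plvap had no entry. ETS factors are known regulators of endothelial genes, but the core letters are common: GGAAG or CTTCC was in 6 of the 7 windows and in 71.4% of all 32851 windows. In the stretches printed, Flt1 had 3 matches, Eng 2, Kdr 1 and Stab2 0, the match in the Stab2 window lying past the stretch shown. The letters AGATAA, a motif of the zinc-finger factors that include Gata2 and searched as TTATCT on the other strand, were in 1 window, that of Tek, against 11.2% of all windows. The letters TATAAA, a core promoter motif searched as TTTATA on the other strand, were in 1, that of Flt1, where they overlap no capitals, against 13.6%. GTAAAC (forkhead, GTTTAC on the other strand) and CACGTG (E-box, its own reverse) were in 0 of the 7, against 7.89% and 7.15%. These matches describe the letters in the windows only.

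**Figure D1:**
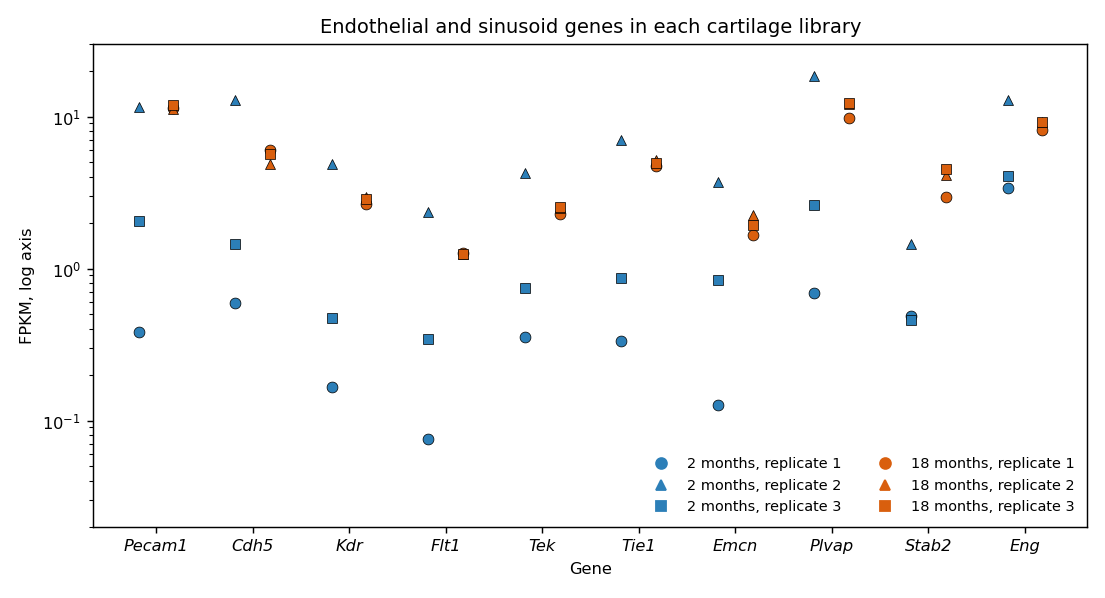
FPKM of the 10 genes in each library on a log axis, with 2-month libraries in blue, 18-month libraries in orange and the replicate given by the symbol. The 2-month replicate 2 (blue triangle) lies above both other 2-month libraries for all 10 genes, and only for Stab2 do all 18-month libraries lie above it.

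For the members other than Stab2, the mean levels of the ages differed less than the 2-month libraries differed among themselves. Replicate 2 of the 2-month group was above both other 2-month libraries for 10 of 10 genes, and above every 18-month library for 8 of 10. The 18-month libraries were above 2-month replicates 1 and 3 for 10 of 10 genes. The share of all tested genes with these orders was not counted, so they cannot be read as particular to the members. Over the whole table replicate 2 also differed more from replicates 1 and 3 than these did from each other. The median chi-square was 48.7, 36.4 and 13.1 times that of counting noise. All adjusted p-values by gene are from the edgeR quasi-likelihood fit, by Benjamini-Hochberg over 20397 genes (21489 without 2-month replicate 2), and a call needed an adjusted p under 0.05 together with a log2 fold change past 1 in either direction. By this rule 1 of the 10, Stab2, was called higher at 18 months and 0 were called lower, beside 14.9% of all tested genes called higher and 21.3% called lower. The median log2 fold change of the 10 was 0.53, beside -0.02 over all genes tested. Without 2-month replicate 2, 9 of the 10 were called higher, with a median of 2.57, beside 23.3% of all genes called higher and 21.3% lower. That library was set apart by its high member values among others, so this count only describes the dependence on it. In bulk RNA, fewer cells of a type and less RNA per cell cannot be told apart.

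**Figure D2:**
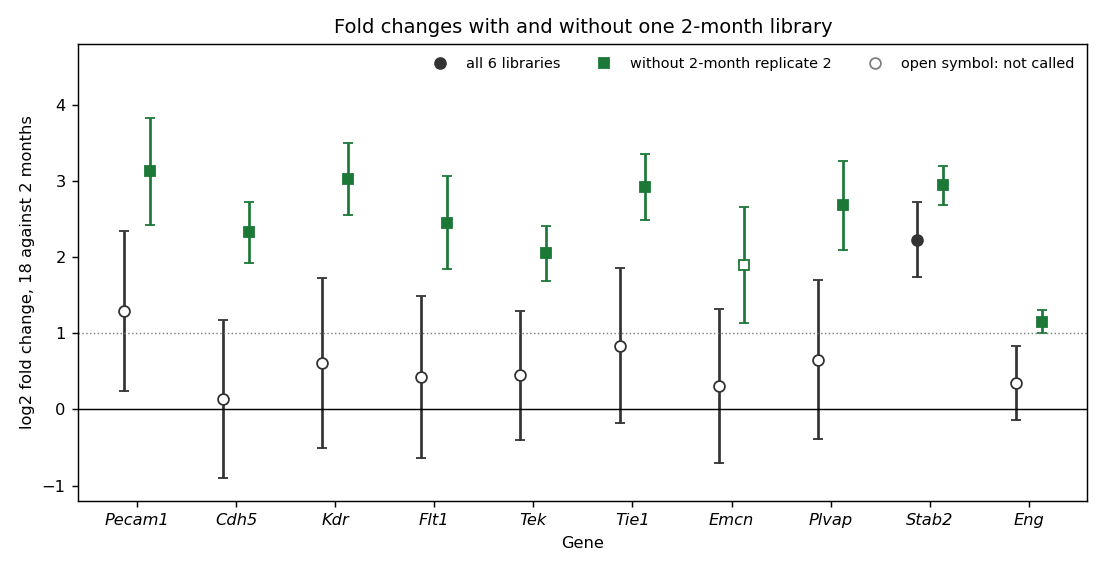
Log2 fold change at 18 months against 2 months, with its standard error, for each of the 10 genes with all 6 libraries and without 2-month replicate 2. With all libraries the values run from 0.14 (Cdh5) to 2.23 (Stab2), and without replicate 2 from 1.15 (Eng) to 3.13 (Pecam1).

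Pecam1 (ENSMUSG00000020717, chr11:106654217-106750628, minus strand) encodes PECAM-1 or CD31, an adhesion molecule of endothelial junctions that platelets and many leukocytes carry too. Its FPKM was 0.383, 11.5 and 2.04 in 2-month replicates 1 to 3, and 11.3, 11.2 and 11.9 at 18 months. The third 2-month library was above the first, and the second reached the 18-month level, so the ages overlapped. The log2 fold change was 1.29 (SE 1.05, adjusted p = 0.337) with all libraries and 3.13 (SE 0.70, adjusted p = 0.0116) without 2-month replicate 2. In counts relative to the TMM-scaled library size (CPM), the 18-month mean was 1.01 times that of 2-month replicate 2, the closest of the 10 genes, and 8.64 times the mean of replicates 1 and 3.

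Cdh5 (ENSMUSG00000031871, chr8:104101625-104144511, plus strand) encodes VE-cadherin, which joins endothelial cells at adherens junctions and is among the most restricted of endothelial markers. Its FPKM was 0.594, 12.9 and 1.44 at 2 months and 6.02, 4.84 and 5.68 at 18 months. All 18-month libraries lay between 2-month replicate 2 and the other 2-month libraries. With all libraries the log2 fold change was 0.14 (SE 1.04, adjusted p = 0.922), the smallest of the 10 genes. It was 2.33 (SE 0.40, adjusted p = 0.0044) without 2-month replicate 2 and its sign turned without replicate 1 (-0.38) and without replicate 3 (-0.29).

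Kdr and Flt1 encode the VEGF receptors 2 and 1. The first carries most of the growth signal of VEGF-A, and the second binds VEGF-A tightly and also gives a soluble decoy. Kdr (ENSMUSG00000062960, chr5:75932827-75978458, minus strand) had 0.166, 4.87 and 0.475 FPKM at 2 months and 2.66, 2.94 and 2.85 FPKM at 18 months. Flt1 (ENSMUSG00000029648, chr5:147561604-147726011, minus strand) had 0.0762, 2.37 and 0.344 FPKM at 2 months and 1.27, 1.25 and 1.25 FPKM at 18 months. In both genes 2-month replicate 2 was the highest of the 6 libraries and replicate 1 the lowest. The CPM of 2-month replicate 2 was 13.7 times the mean of replicates 1 and 3 for Kdr, the widest gap of the 10 genes, and 10.1 times for Flt1. The log2 fold change of Kdr was 0.61 (SE 1.12, adjusted p = 0.67) with all libraries and 3.02 (SE 0.47, adjusted p = 0.0030) without replicate 2. That of Flt1 was 0.42 (SE 1.06, adjusted p = 0.758) and 2.45 (SE 0.62, adjusted p = 0.0171) in the same 2 fits.

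Tek and Tie1 encode the Tie receptor tyrosine kinases. Tek, also called Tie2, binds the angiopoietins, and Tie1 modulates its signal. Tek (ENSMUSG00000006386, chr4:94739289-94874976, plus strand) had 0.354, 4.23 and 0.746 FPKM at 2 months and 2.28, 2.51 and 2.56 FPKM at 18 months. Tie1 (ENSMUSG00000033191, chr4:118471191-118490061, minus strand) had 0.336, 7.03 and 0.871 FPKM at 2 months and 4.73, 5.14 and 4.94 FPKM at 18 months. In both, 2-month replicate 2 was the highest of the 6 libraries. The log2 fold change of Tek was 0.45 (SE 0.85, adjusted p = 0.682) with all libraries and 2.05 (SE 0.36, adjusted p = 0.0049) without replicate 2. That of Tie1 was 0.84 (SE 1.02, adjusted p = 0.52) and 2.92 (SE 0.43, adjusted p = 0.0024).

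Emcn and Plvap encode endomucin, a sialomucin of capillary and venous endothelium, and the diaphragm protein of endothelial fenestrae and caveolae. Emcn (ENSMUSG00000054690, chr3:137341067-137432185, plus strand) had 0.126, 3.73 and 0.836 FPKM at 2 months and 1.66, 2.24 and 1.94 FPKM at 18 months. Plvap (ENSMUSG00000034845, chr8:71497765-71511752, minus strand) had 0.694, 18.4 and 2.62 FPKM at 2 months and 9.83, 12.2 and 12.2 FPKM at 18 months. The same library was highest for both. Emcn in 2-month replicate 1 had 38 counts, the lowest count of any of the 10 genes in any library. The log2 fold change of Emcn was 0.30 (SE 1.01, adjusted p = 0.819) with all libraries and 1.90 (SE 0.76, adjusted p = 0.0775) without replicate 2, where it was the only member not called. That of Plvap was 0.65 (SE 1.05, adjusted p = 0.627) and 2.68 (SE 0.58, adjusted p = 0.0102).

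Stab2 (ENSMUSG00000035459, chr10:86841198-87008025, minus strand) encodes stabilin-2, the scavenger receptor by which sinusoidal endothelium of liver, spleen and marrow takes up hyaluronan. It was higher at 18 months in every library. Its FPKM was 0.485, 1.46 and 0.459 at 2 months and 2.96, 4.10 and 4.53 at 18 months, with means of 0.800 ± 0.568 and 3.87 ± 0.813 (SD, n = 3 each). It was the only member whose ages did not overlap, beside 35.6% of all tested genes that were higher in every 18-month library. The log2 fold change was 2.23 (SE 0.49, adjusted p = 0.0126) with all libraries and 2.94 (SE 0.25, adjusted p = 0.000359) without 2-month replicate 2. The 18-month mean CPM was 2.68 times that of 2-month replicate 2, whereas for the other members it was 0.430 to 1.01 times. Stab2 overlaps the exons of Gm16268 on the opposite strand, which had 0 to 27 counts a library against 226 to 2533 for Stab2.

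Eng (ENSMUSG00000026814, chr2:32646595-32682658, plus strand) encodes endoglin, a co-receptor for BMP9 and TGF-beta on endothelium that is also found on mesenchymal cells and macrophages. Its FPKM was 3.40, 12.9 and 4.04 at 2 months and 8.18, 9.18 and 9.20 at 18 months. The 2-month libraries were nearer to each other than for the other members except Stab2: replicate 2 had 3.15 times the mean CPM of replicates 1 and 3, against 6.97 to 13.7 times for the 8 members other than Stab2 and Eng. The log2 fold change was 0.35 (SE 0.49, adjusted p = 0.581) with all libraries and 1.15 (SE 0.15, adjusted p = 0.0014) without replicate 2. Exons of Eng overlap those of Fpgs on the opposite strand, which had 609 to 998 counts a library against 758 to 3066 for Eng. The counting is not stated to have used strand, so reads of the overlap cannot be assigned.

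Per length, Pecam1 and Plvap were the most abundant members at 18 months, at 11.5 ± 0.396 and 11.4 ± 1.37 FPKM (SD, n = 3), and their ranges overlapped. Eng followed at 8.85 ± 0.585 FPKM. Cdh5 at 5.51 ± 0.609 and Tie1 at 4.94 ± 0.209 FPKM overlapped each other. Stab2 at 3.87 ± 0.813, Kdr at 2.81 ± 0.145, Tek at 2.45 ± 0.147, Emcn at 1.95 ± 0.293 and Flt1 at 1.26 ± 0.0138 FPKM came next, and the ranges of these neighbours in the order were apart. At 2 months the order by mean was Plvap, Eng, Cdh5, Pecam1, Tie1, Kdr, Tek, Emcn, Flt1 and Stab2, from 7.23 ± 9.70 to 0.800 ± 0.568 FPKM, and every neighbour overlapped. The coefficient of variation ran from 1.10% (Flt1) to 21.03% (Stab2) at 18 months and from 71.0% to 143% at 2 months. Within single 2-month libraries Stab2 stood at rank 4, 10 and 9 in replicates 1 to 3, and its last place by mean rests on replicate 2. Without that library its 2-month mean was 0.472 FPKM, above Kdr (0.321) and Flt1 (0.210). It was at rank 6 in each 18-month library.

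Ratios within a library, which do not depend on how libraries are scaled, described each member's proportion to Cdh5, the divisor that all 9 ratios share. The FPKM ratio of Pecam1 to Cdh5 was 0.644, 0.891 and 1.42 at 2 months and 1.88, 2.32 and 2.10 at 18 months, and that of Tie1 was 0.565, 0.544 and 0.605 against 0.785, 1.06 and 0.870. The ratio of Kdr was 0.279, 0.376 and 0.330 at 2 months and 0.441, 0.608 and 0.501 at 18 months. For these 3 genes the ages did not overlap, and 2-month replicate 2 lay with the other 2-month libraries. Their log2 ratios were higher at 18 months by 1.16, 0.66 and 0.65 for Pecam1, Tie1 and Kdr (exact permutation test, two-sided, p = 0.1 each, the smallest that 3 against 3 can give, and adjusted p = 0.3 over 9 ratios). With 3 libraries an age no ratio could pass 0.05. Stab2 to Cdh5 was 0.816, 0.113 and 0.318 at 2 months and 0.492, 0.848 and 0.798 at 18 months, and the ages overlapped. Eng to Cdh5 was 5.72, 0.9999 and 2.80 at 2 months and 1.36, 1.90 and 1.62 at 18 months. In 2-month replicate 1, with the fewest Cdh5 counts (138), Eng made 51.4% of the summed FPKM of the 10 genes there, 16.3% and 29.1% in replicates 2 and 3, and 16.1%, 16.5% and 16.1% at 18 months. The log2 differences of the ratios of Flt1, Tek, Emcn and Plvap to Cdh5 were 0.37, -0.06, 0.10 and 0.52, with overlapping ages. The difference without 2-month replicate 2 was 0.44 for Stab2 and -1.32 for Eng, against 1.17 and -0.65 with all libraries. Divided by Pecam1 in place of Cdh5, the log2 differences were -1.81 for Eng, -1.23 for Tek, -1.06 for Emcn, -0.80 for Flt1 and -0.65 for Plvap, with no overlap between ages (exact permutation p = 0.1 each, the smallest possible, not adjusted). They were -0.51 for Kdr and -0.51 for Tie1, with overlapping ages (exact permutation p = 0.4 and 0.2), and 0.0055 for Stab2 (p = 1).

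**Figure D3:**
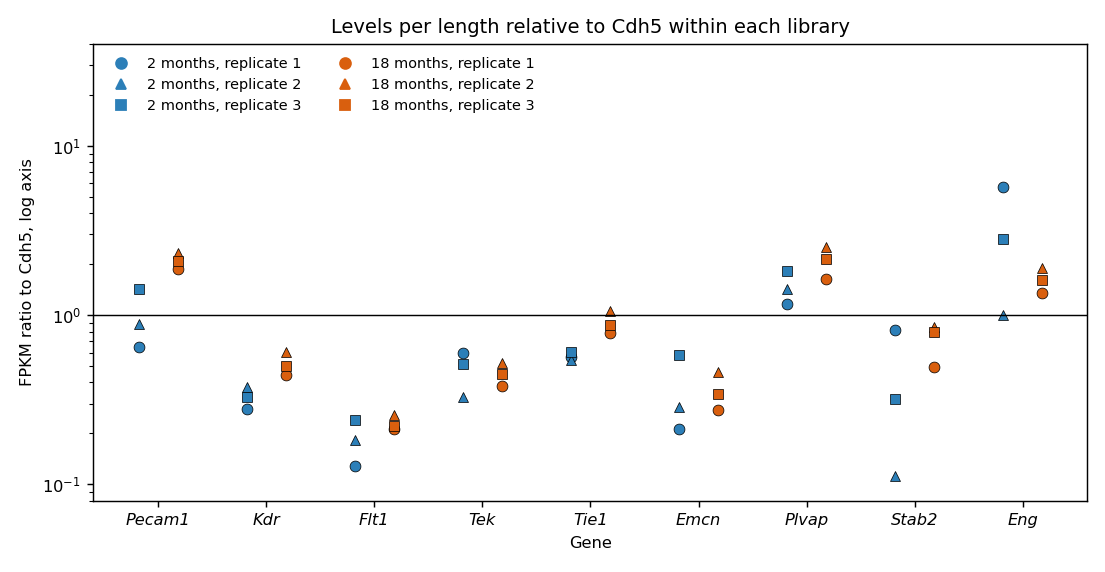
FPKM of each of the other 9 genes divided by that of Cdh5 in the same library, on a log axis, by age and replicate. Pecam1, Kdr and Tie1 have no overlap between ages, and the Eng ratio runs from 0.9999 to 5.72 within the 2-month group.

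The members shared a common pattern over the 6 libraries. Plvap was nearest to the median of the members' centred log2 CPM (root mean square distance 0.091), then Tie1 (0.142), Flt1 (0.146) and Kdr (0.185), while Stab2 (0.933) and Eng (0.935) were farthest. Among all other tested genes, the 5 nearest to that median were Rasip1 (0.107), Slit2 (0.121), Egfl7 (0.130), Rapgef5 (0.161) and Rasgrp3 (0.175). Rasip1 and Egfl7 are known endothelial genes, for vessel lumen formation and for a secreted vessel matrix protein. Rasip1 had 25, 573 and 89 counts at 2 months and 381, 377 and 409 at 18 months, again with 2-month replicate 2 highest and replicate 1 lowest. These distances describe 6 libraries and carry no test.

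The wider pathways were described by 7 lists with 80 tested genes, of which 12 were called higher and 13 lower at 18 months, with a median log2 fold change of 0.48, beside 14.9% and 21.3% of all tested genes. Without 2-month replicate 2, 44 were called higher and 15 lower, with a median of 2.08, beside 23.3% and 21.3% of all genes, and all 25 genes called with every library kept their direction and call. Without 18-month replicate 1, 2 or 3, 6, 5 and 5 companion genes were called higher, and without 2-month replicate 3, 6 were. In the same 4 fits, all genes called higher were 2408 of 21536, 2119 of 21396, 2095 of 21365 and 2141 of 21356. With every library they were 3047 of 20397, so calls fell over the whole table too. Of the genes named below, Lmo2, Aqp1, Selp, Fcgr2b and Bmx lost the call in each of these 4 fits, with adjusted p between 0.0502 and 0.13. Lyl1 lost it in these and without 2-month replicate 1 (adjusted p between 0.0563 and 0.0997). With no filter on low counts, Aqp1 (adjusted p = 0.0611), Fcgr2b (0.0507) and Lyl1 (0.0594) lost it, and with limma on log2(FPKM + 1) Efnb2 was at -0.86, inside the fold limit. The log2 fold changes of Lmo2, Lyl1, Aqp1, Selp, Fcgr2b and Bmx without 2-month replicate 2 were 5.27, 6.48, 3.79, 7.52, 5.94 and 7.58.

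**Figure D4:**
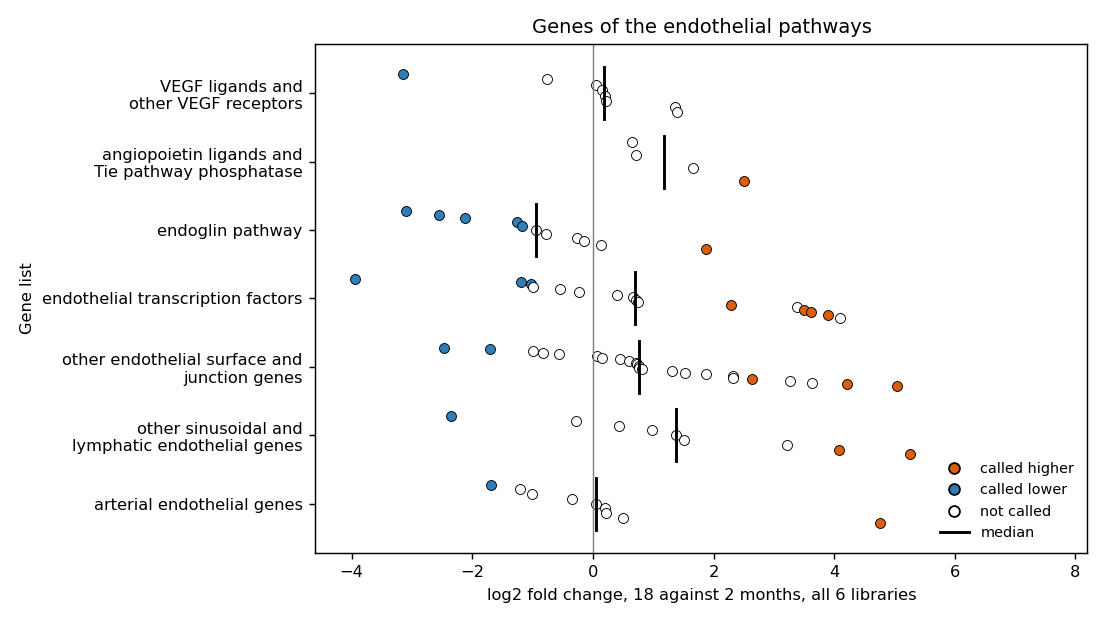
Log2 fold change at 18 against 2 months with all 6 libraries for each tested gene of the 7 companion lists, coloured by call, with the list median as a bar. The endoglin pathway has the lowest median, -0.94, and the list of other sinusoidal and lymphatic genes the highest, 1.38.

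Among VEGF ligands and the other VEGF receptors, 0 of 8 were called higher and 1 lower, with a median of 0.18. The gene called lower was Vegfa, the main ligand of Kdr and Flt1, with 159, 95.7 and 128 FPKM at 2 months and 20.9, 12.3 and 12.7 FPKM at 18 months. Every 18-month library was below every 2-month library, and 2-month replicate 2 was the lowest of its age (log2 fold change -3.16, SE 0.33, adjusted p = 0.0017). Vegfa RNA was thus lower at 18 months, while its receptors Kdr and Flt1 did not pass the test with all libraries. In the same fit 14 of 14 chondrocyte markers were called lower, beside 21.3% of all tested genes. Their sum was 9584 to 11825 FPKM at 2 months and 92.8 to 320 FPKM at 18 months. The part of cell content in the Vegfa values was not tested. Without 2-month replicate 2, 5 of the 8 were called higher and 2 lower.

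In the angiopoietin list, 1 of 4 was called higher and 0 lower, with a median of 1.19. Angpt1, the agonist ligand of Tek, rose from 0.878, 2.05 and 1.64 FPKM at 2 months to 6.30, 10.5 and 10.4 FPKM at 18 months (log2 fold change 2.51, SE 0.37, adjusted p = 0.0037), without overlap. Angpt4, a further ligand of Tek, with the highest mean over all 6 libraries though below Angpt1 in 4 of them, had 0.274, 7.49 and 0.521 FPKM at 2 months and 5.38, 10.9 and 9.86 FPKM at 18 months (log2 fold change 1.66, SE 1.20, adjusted p = 0.287). It was called without 2-month replicate 2 (4.34, adjusted p = 0.0010). Without 2-month replicate 2, 3 of the 4 were called higher.

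In the endoglin pathway, 11 of 12 genes were tested, 1 was called higher and 5 lower, with a median of -0.94. The counts were 1 and 5 without 2-month replicate 2 as well. Acvrl1, the ALK1 receptor that acts with endoglin, rose from 1.51, 3.29 and 1.56 FPKM to 8.61, 7.62 and 8.06 FPKM (log2 fold change 1.87, SE 0.29, adjusted p = 0.0045). The signal mediator Smad9 fell from 4.35, 3.16 and 4.85 FPKM to 0.742, 0.326 and 0.480 FPKM (log2 fold change -3.09, SE 0.37, adjusted p = 0.0022). Id1, a target of BMP signals, fell from 77.0, 43.5 and 56.6 FPKM to 18.3, 11.7 and 13.5 FPKM (log2 fold change -2.12, SE 0.29, adjusted p = 0.0031). These genes are also used outside endothelium, chondrocytes among others.

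Of 17 endothelial transcription factors 16 were tested, 4 were called higher and 3 lower, with a median of 0.69. Lmo2 and Lyl1, which blood cell precursors use too, rose by 3.49 (SE 0.95, adjusted p = 0.0261) and 3.90 (SE 1.24, adjusted p = 0.0422) on the log2 scale. Lmo2 had 1.59, 16.1 and 1.99 FPKM at 2 months and 76.0, 73.9 and 74.0 FPKM at 18 months. Meox2, a homeobox factor of mesenchyme and vessels, fell from 3.40, 2.80 and 2.85 FPKM to 0.452, 0.0706 and 0.0939 FPKM (log2 fold change -3.94, SE 0.76, adjusted p = 0.0084). Without 2-month replicate 2, 9 were called higher and 3 lower.

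Of 24 other endothelial surface and junction genes, 3 were called higher and 2 lower, with a median of 0.76. Without 2-month replicate 2, 18 were called higher and 3 lower. Aqp1, a water channel of endothelium and red cells, had 4.34, 54.5 and 17.1 FPKM at 2 months and 137, 172 and 170 FPKM at 18 months (log2 fold change 2.63, SE 0.84, adjusted p = 0.0432). Selp, the P-selectin of endothelial and platelet granules, had 0, 182 and 22 counts at 2 months and 2072, 2751 and 2702 at 18 months (log2 fold change 5.05, SE 1.505, adjusted p = 0.035). Jam2, a junction adhesion molecule, fell from 21.9, 13.3 and 17.5 FPKM to 5.48, 2.49 and 2.25 FPKM (log2 fold change -2.46, SE 0.42, adjusted p = 0.0056). The list thus held genes of platelets and red cells among those that rose.

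Of 9 other sinusoidal and lymphatic genes, the list nearest to Stab2 in kind, 2 were called higher and 1 lower, with a median of 1.38, and 5 and 1 without 2-month replicate 2. Fcgr2b, an inhibitory Fc receptor of liver sinusoids and of B and myeloid cells, had 0.0617, 2.97 and 0.538 FPKM at 2 months and 19.5, 20.3 and 21.05 FPKM at 18 months (log2 fold change 4.07, SE 1.23, adjusted p = 0.0362). Of 9 arterial genes 1 was called higher and 1 lower, with a median of 0.05, and 4 and 1 without that library. Bmx, a kinase of arterial endothelium and myeloid cells, had 0.0630, 1.15 and 0.0459 FPKM at 2 months and 10.6, 12.7 and 11.1 FPKM at 18 months (log2 fold change 4.75, SE 1.29, adjusted p = 0.026). Efnb2, the arterial ephrin, fell from 1.43, 3.52 and 1.82 FPKM to 0.864, 0.638 and 0.680 FPKM (log2 fold change -1.69, SE 0.34, adjusted p = 0.0096).

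Marker sums of blood cells rose with the members' sum from 2-month replicates 1 and 3 to replicate 2 and to the 18-month libraries. In summed FPKM, those of mural cells, chondrocytes, fibroblasts and bone cells were lower in every 18-month library than in every 2-month library. The summed FPKM of the 10 members was 6.62, 79.4 and 13.9 at 2 months and 50.9, 55.6 and 57.1 at 18 months. That of 14 neutrophil markers was 8.98, 3730 and 58.5 at 2 months and 42961, 47884 and 47153 at 18 months. The erythroid sum was 300, 7425 and 804, and then 29994, 39756 and 39396. The sum of 10 megakaryocyte markers was 6.80, 76.9 and 9.65, and then 1033, 1542 and 1504. These blood cell sums had the members' order within the 2-month group, but at 18 months they were above every 2-month library, where only Stab2 among the members was. Monocyte and macrophage markers summed to 28.5, 188 and 49.6, and then 649, 649 and 643 FPKM, and stem and progenitor markers to 6.23, 14.6 and 7.82, and then 32.7, 43.4 and 40.7 FPKM. Osteoblast and osteocyte markers summed to 2030, 5901 and 2184 at 2 months and 1535, 1510 and 1501 FPKM at 18 months, so 2-month replicate 2 was high there too. Their share of all counts was 0.557%, 2.92% and 0.669%, and then 0.673%, 0.673% and 0.685%. By that share 2-month replicates 1 and 3 lay below the 18-month libraries. Of the 12, 0 were called higher and 4 lower, beside 14.9% and 21.3% of all tested genes. Without 2-month replicate 2, 6 were called higher and 4 lower, beside 23.3% and 21.3%. Mural cell markers, those of the pericytes and smooth muscle that wrap vessels, summed to 71.0, 78.7 and 73.4 at 2 months and 35.2, 34.9 and 31.5 FPKM at 18 months. This flat 2-month sum joined markers that differed. Acta2, the most abundant marker over all libraries, was lowest in replicate 2, at 36.9, 12.1 and 32.0 FPKM. Pdgfrb was highest there, at 9.88, 17.5 and 11.1 FPKM, and Cspg4 was at 20.8, 22.4 and 23.2 FPKM. Of the 10 mural markers 7 were highest at 2 months in replicate 2, beside 9 of 14 chondrocyte, 6 of 10 fibroblast and 14 of 14 neutrophil markers. The share over all genes was not counted, so the mural count cannot be read as particular to those markers. Over the mural list, the median ratio of the CPM of replicate 2 to the mean of replicates 1 and 3 was 2.65. It was 1.18 for the chondrocyte list, 1.18 for the fibroblast list and 110 for the neutrophil list. Synovial and tendon fibroblast markers summed to 7668, 3690 and 7829, and then 1601, 349 and 342 FPKM, lowest at 2 months in replicate 2. No cell type list had a marker at 0 in every library of an age. The part of these cells in the members' values was not tested.

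**Figure D5:**
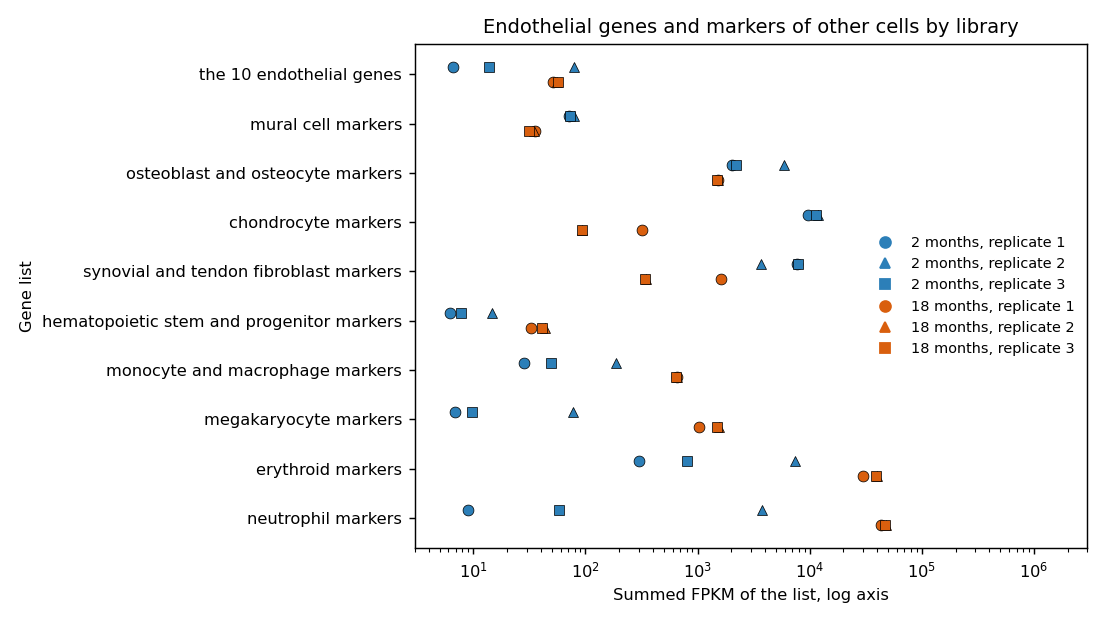
Summed FPKM of the 10 members and of each cell type marker list in every library, on a log axis. The sums of the members and of the blood cell lists are higher in 2-month replicate 2 than in the other 2-month libraries. The mural sums lie between 71.0 and 78.7 in all 2-month libraries. Within that age 7 of the 10 mural markers are highest in replicate 2, beside 9 of 14 chondrocyte and 14 of 14 neutrophil markers.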

How the data were processed

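The authors made strand-specific, poly(A)-selected, paired-end libraries with molecular identifiers, and the submitters' processing notes list cutadapt 1.9, HISAT2 2.0.4, UMI-tools, StringTie 1.3.4d, DESeq2 and edgeR. The genome build and the strand setting of the counting are not given in the sources used here; of the 33971 genes, 99.7% were found in GENCODE M21 (GRCm38), whose exons gave the overlaps. Deposited values were counts of each gene in whole numbers, not normalized, and FPKM values, scaled by transcript length and library. The value columns were matched to libraries by the age words of their names, and 0 were left out. The table's other columns hold gene positions, names and annotation.

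The counts were compared between ages by edgeR 4.0.16 under R 4.3.3 (TMM, filterByExpr, quasi-likelihood, no replicate block; SE as the log2 fold change over the square root of F). Ratios were tested by exact permutation over 20 divisions with no pseudocount. Alternatives were limma 3.58.1 with trend on log2(FPKM + 0.1), with 1 in place of 0.1 or on TPM, DESeq2 1.42.0, other scalings, filters and no fold limit, a replicate block, and each library left out. The members and lists were chosen with earlier results of these data known. Genes are named by a rule. They are the members, the 5 genes nearest to the median profile (prior count 2) and Xist. In each companion list they are the most abundant gene and the called genes with the largest rise and fall, among those with a mean of at least 1 FPKM. Of the cell type lists only mural markers are named, Acta2 as the most abundant, and Pdgfrb and Cspg4 outside the rule. Scripts were tested on simulated data. Libraries of an age differed by more than sampling noise and all were kept as separate samples. Same-numbered libraries of the 2 ages had correlations of deviations of 0.034, 0.044 and -0.024.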

Additional observations from a re-analysis of the deposited data

How the results depend on the processing

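With all 6 libraries, the 10 members had log2 fold changes above 0 in 110 of 110 values over 11 alternatives. Stab2 alone was called in each of the 11 (1.46 to 2.39), and DESeq2 gave no p for Kdr and Tie1. The alternative with no fold limit repeats the fold changes of the main fit, and all 11 reuse the same 6 libraries, so this tally is no independent support. Stab2 was also called in 6 of 6 fits without 1 library (1.97 to 2.94, adjusted p up to 0.0441). Without 1 library, members called ranged from 1 to 9 and their median from 0.0606 to 2.57, the upper values without 2-month replicate 2. The log2 fold changes ranged from -0.38 to 2.33 for Cdh5, -0.24 to 1.90 for Emcn, -0.11 to 2.45 for Flt1 and -0.0297 to 2.05 for Tek. All genes called higher ranged from 2095 to 5007 and companion genes from 5 to 44. All genes called higher were 4769 with no fold limit, and called lower 2217 with limma on log2(FPKM + 1). Companion genes called higher were 19 with limma on log2(FPKM + 0.1) and 19 with 1 added, and called lower 6 with 1 added. Rescaling to TPM moved the median of all genes to -0.33. Divided by Pecam1, the log2 ratio differences were -1.06 for Emcn, -0.80 for Flt1, -0.51 for Kdr, -0.65 for Plvap and -0.51 for Tie1; with 0.1 FPKM added, that of Emcn was -0.0902. Without 1 library, the ratio of Emcn to Cdh5 ranged from -0.22 to 0.51 and that of Tek from -0.32 to 0.11. The cause of these differences was not tested. The labels do not say whether libraries with the same replicate number are paired. With a replicate block, 1 member was called higher, the member median was 1.68, and 2523 genes were called higher and 3509 lower. Counts as low as 38 in 2-month replicate 1 limit the ratios there.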
